A study of Mus musculus with 25 samples.

Results

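The genes described here are *Hs3st6*, *Shisa9*, *Dclk3*, *Klhl40*, *Nptxr*, *Crisp1* and *Mafa*, 7 genes listed as early responders because their RNA levels in the pituitary showed large differences from the dox-treated state 1, 3 or 5 days after doxycycline (dox) was withdrawn from sh*Rb* mice. All 7 were found in both expression tables, among 14007 genes of the short-term table, 15315 genes of the long-term table and 15768 genes in all. The genes were chosen by their short-term differences from 16w +dox, with no numeric threshold, so that there are no values just inside or outside one, and the short-term values are given as a description without a test. All 7 passed the filter on low reads in both experiments. The stated rule names no long-term comparison, and tests are given for the long-term mice only, although results of those mice were also known when the list was made.

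RNA sequencing was performed on pituitaries or pituitary tumors from 25 sh*Rb* mice, in which dox switches on a GFP-linked short hairpin RNA (shRNA) against *Rb1* at the *Col1a1* locus through a reverse transactivator (rtTA) expressed from *Rosa26*. Every mouse carried both transgenes and was given dox in its drinking water, and the line descends from 1 targeted embryonic stem cell clone with 1 hairpin, shRb5. The *Rosa26* promoter is broadly active, so the knock-down (KD) was not limited to the pituitary. The short-term experiment held 13 mice that were on dox for 16 weeks: 3 males still on dox (16w +dox), 4 females 1 day off dox (1d -dox), 3 males 3 days off dox (3d -dox) and 3 females 5 days off dox (5d -dox). The long-term experiment held 12 mice: 3 females on dox for 6 weeks (6w+dox), 2 females and 2 males on dox for 12 weeks (12w+dox), and 3 females and 2 males with 6 weeks on dox followed by 6 weeks off dox (12w-res). The mice were treated as adults, and the age of each mouse was not given in the sources used here. Mice that never received dox were not analysed here. Sucrose was added to the water with dox and left out once dox was withdrawn, so the loss of dox and the loss of sucrose cannot be told apart.

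RB, the product of *Rb1*, binds E2F transcription factors and holds down genes that carry cells into S phase. The intermediate lobe of the mouse pituitary consists mainly of melanotrophs, which process the prohormone POMC, and in mice that lack RB these cells form tumors. None of the 7 genes is best known as a part of the cell cycle machinery. *Hs3st6* encodes an enzyme that adds a sulfate group to heparan sulfate. *Shisa9* encodes an auxiliary subunit of AMPA-type glutamate receptors, and *Nptxr* encodes the membrane-bound neuronal pentraxin, which helps to cluster such receptors. *Dclk3* encodes a serine/threonine kinase of the doublecortin-like family. *Klhl40* encodes a kelch protein that stabilizes thin filament proteins of skeletal muscle. *Crisp1* encodes a cysteine-rich secreted protein first known from the epididymis, and *Mafa* encodes a basic leucine zipper transcription factor best known for its action on insulin genes in pancreatic beta cells.

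On the mouse genome build GRCm38 (mm10), *Hs3st6* lies at chr17:24752988-24758690 on the plus strand and *Crisp1* at chr17:40293758-40319207 on the minus strand. *Shisa9* lies at chr16:11983593-12270904 (plus), *Dclk3* at chr9:111439081-111489611 (plus) and *Klhl40* at chr9:121777499-121791200 (plus). *Nptxr* lies at chr15:79786351-79804709 (minus) and *Mafa* at chr15:75745501-75748321 (minus). Exons of *Nptxr* overlap those of the protein-coding gene *Npcd* on the same strand, and exons of *Klhl40* overlap those of *Gm47108* on the opposite strand. How reads in these overlaps were assigned, and whether strand was used, was not given in the sources used here, so the levels of *Nptxr* and *Klhl40* carry that uncertainty.

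The target of the hairpin that is switched off at dox removal is shown because the comparisons turn on that hairpin. The promoter of the member with the widest change in the long-term mice is shown as a description, and promoter activity was not measured. The shRb5 target site is 21 bases long and lies in the coding sequence of *Rb1*, within exon 22, at chr14:73206076-73206096 on the minus strand (GRCm38). Capitals mark the 7 bases that would pair with bases 2 to 8 of the guide strand, if its first base is taken to pair with the last base shown. That 7-base run was absent from the longest coding transcript of all 7 genes. It was present in 13.6% of the longest coding transcripts of 12972 genes of the short-term table and in 13.3% of those of 14144 genes of the long-term table, and an absent match is a statement about letters only.
shRb5 target: gaggagtttgattCCATTATa

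RefSeq promoter sequences (GRCm38.p6) were matched for 2 of the 7 genes, *Klhl40* and *Crisp1*. The 250 bases before the *Crisp1* start site, chr17:40319208-40319457 on the minus strand, are printed with matches to TATAAA and to CANNTG in capitals.
Crisp1 promoter: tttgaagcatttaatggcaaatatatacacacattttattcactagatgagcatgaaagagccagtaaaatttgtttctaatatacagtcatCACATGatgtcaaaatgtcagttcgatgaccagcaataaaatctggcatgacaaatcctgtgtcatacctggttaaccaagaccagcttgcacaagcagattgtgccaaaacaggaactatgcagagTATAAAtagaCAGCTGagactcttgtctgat
Both strands were searched. The TATAAA match began at position -31 from the start site, and 12.4% of 32851 promoter windows of the same length held that motif. CANNTG, a palindromic frame whose strands match together, was found 2 times in the *Crisp1* window and 3 times in the *Klhl40* window, and 66.2% of all windows held it. The E2F core GGCGCG had no match in either window, and 15.9% of all windows held it. The same was true of the Maf site core TGCTGA (held by 16.1% of windows), the cyclic AMP response element TGACGTCA (1.55%), the GC box GGGCGG (32.7%) and the steroid receptor core AGAACA (16.1%). TATAAA had no match in the *Klhl40* window. A match is a description of letters, not a bound site, and a missing match says nothing about the factor.

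Levels are given in FPM, the deposited unit, in which the reads of a gene are divided by a DESeq2 size factor so that mice of 1 experiment share a common scale. Recovered reads on genes ranged from 9573101 to 13036900 per short-term mouse, where 1 read was worth 0.0204 to 0.0305 FPM, and from 19066053 to 28968476 per long-term mouse, where 1 read was worth 0.0279 to 0.0590 FPM. The short-term libraries were made by rRNA depletion and the long-term libraries by poly(A) selection, so levels were not compared between the experiments. *GFP*, which reports the hairpin transcript, had a mean of 1247 FPM in 16w +dox, 606 in 1d -dox, 122 in 3d -dox and 11.7 in 5d -dox, without overlap between neighbouring groups. *Rb1* had means of 4.19, 4.46, 5.01 and 5.12 FPM in the same order, with overlapping mice, and was not called (adjusted p in limma of 0.896, 0.532 and 0.525 against 16w +dox). Exons of *Rb1* overlap those of *Rcbtb2* and *Lpar6* on the opposite strand. In the long-term mice *Rb1* rose from 3.21 ± 0.70 FPM in 12w+dox (SD, n = 4) to 18.2 ± 1.7 in 12w-res (SD, n = 5), a log2 difference of 2.35 ± 0.22 (SE, limma, adjusted p = 3.00e-06). All 7 melanotroph markers were detected in both experiments, led by *Pomc*, the prohormone gene. In bulk tissue, fewer cells of a type and less RNA per cell cannot be told apart.

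In the short-term experiment the 7 genes followed different courses. *Hs3st6* and *Dclk3* were highest early after dox removal and low again on day 5. *Nptxr*, *Crisp1* and *Mafa* were highest on day 5, *Klhl40* was lowest on day 3, and *Shisa9* was low on days 1 and 5. Differences are given below as log2 differences of FPM + 0.5, which understates the change of low genes. At 1d -dox 4 of the 7 genes lay more than 2-fold from 16w +dox, beside 0.767% of the 13958 genes fitted. On day 3 the count was 2 of 7, beside 0.659%, and on day 5 it was 4 of 7, beside 0.802%. These counts restate how the genes were chosen.

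**Figure D1:**
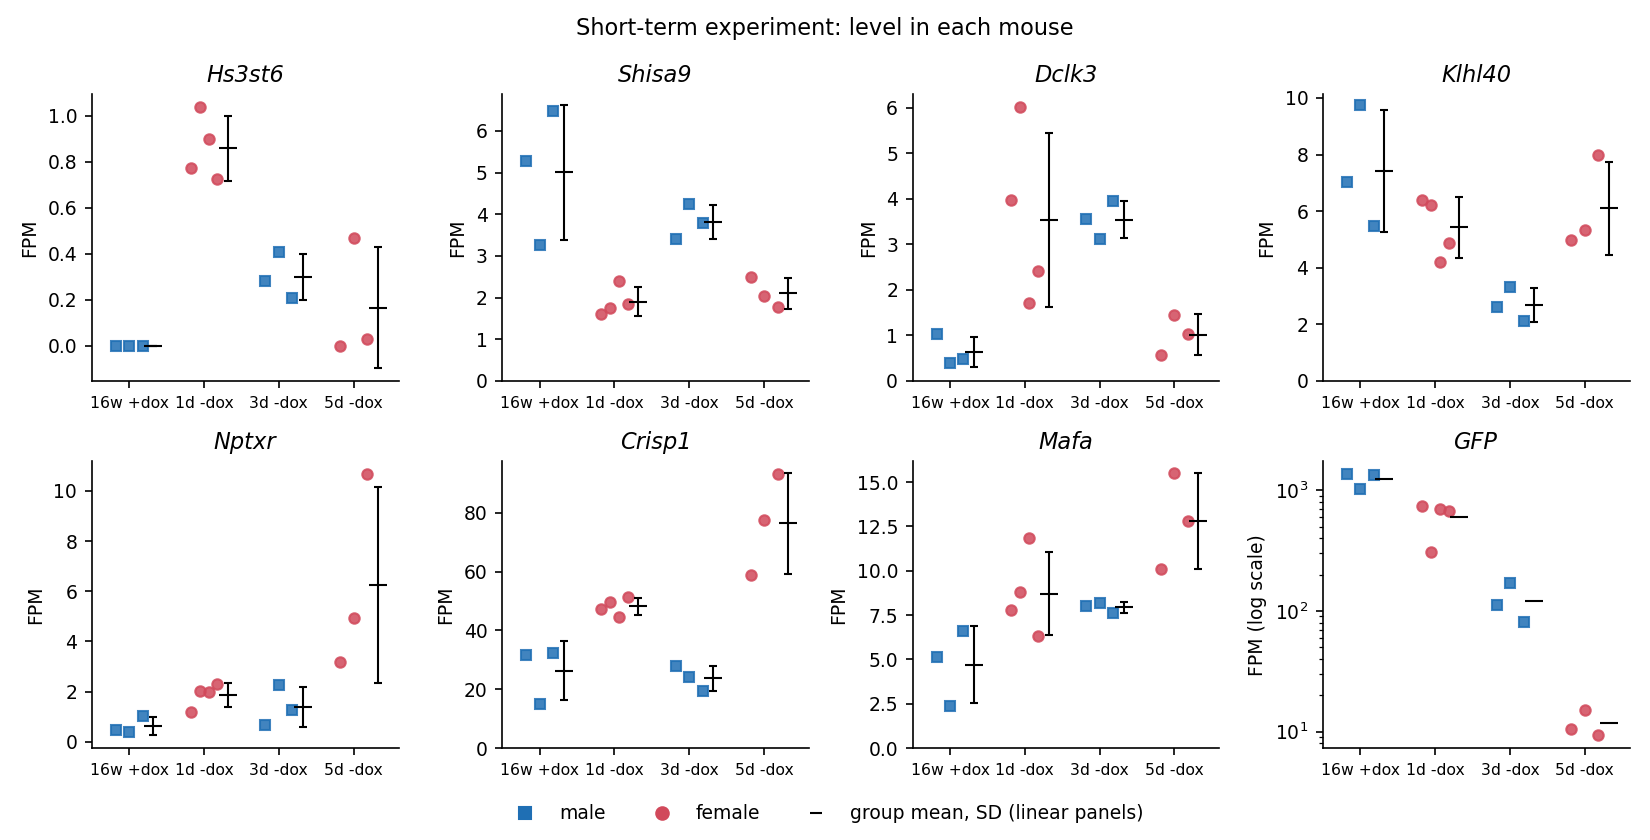
Level of the 7 genes and of *GFP* in each mouse of the short-term experiment, in FPM on the y axis (log scale for *GFP* only), by group on the x axis. Squares are males, circles are females, and the bar beside each group is its mean, with the SD in the linear panels. *Hs3st6* had 0 reads in every 16w +dox mouse, *Dclk3* was high at 1d and 3d -dox, and *Nptxr*, *Crisp1* and *Mafa* had their highest means at 5d -dox.

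*Hs3st6*, the heparan sulfate 3-O-sulfotransferase, had 0 reads in all 3 mice of 16w +dox. The 4 mice of 1d -dox had 0.773, 1.04, 0.897 and 0.725 FPM, which rested on 30 to 36 reads each. The 3 mice of 3d -dox had 0.282, 0.408 and 0.206 FPM (10 to 20 reads). At 5d -dox 1 mouse had 0 reads, 1 had 1 read and 1 had 18 reads (0.467 FPM). Every mouse of 1d -dox therefore lay above every mouse of the other groups, and the 5d -dox mice overlapped those on dox. Set against a floor of 3 reads pooled over the 16w +dox mice (0.0257 FPM), the means were 33.4-fold higher on day 1, 11.6-fold on day 3 and 6.42-fold on day 5. These ratios depend on that choice of floor, and the last rests on replicate 2 of 5d -dox. *Hs3st6* entered the short-term fits only through 1d -dox and 3d -dox, the groups in which it was high.

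*Dclk3*, the doublecortin-like kinase, had 1.02, 0.401 and 0.485 FPM in 16w +dox. It had 3.97, 6.02, 1.72 and 2.41 FPM in 1d -dox and 3.56, 3.12 and 3.95 FPM in 3d -dox, so that every mouse of both groups lay above every mouse on dox. At 5d -dox the 3 mice had 0.561, 1.45 and 1.04 FPM and overlapped 16w +dox again. The ratio of means to 16w +dox was 5.55 on day 1, 5.57 on day 3 and 1.60 on day 5, with log2 differences of 1.74 ± 0.32, 1.87 ± 0.34 and 0.41 ± 0.34 (SE). Both 16w +dox and 3d -dox were male, so the day 3 difference was seen within 1 sex. Between these groups of males the 7 melanotroph markers summed to 35678 to 38845 FPM in 16w +dox and 13030 to 29656 in 3d -dox, without overlap. *Pomc* made up most of that sum, with means of 35744 and 21104 FPM. The median log2 difference of the 7 markers was 0.0089. The part of these levels in the day 3 differences of *Dclk3* and *Klhl40* was not tested.

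*Nptxr*, the neuronal pentraxin receptor, had 0.474, 0.374 and 1.05 FPM in 16w +dox. The mice of 1d -dox had 1.19, 2.02, 1.97 and 2.32 FPM, all above those on dox, and those of 3d -dox had 0.673, 2.26 and 1.26 FPM, which overlapped both. At 5d -dox the values were 3.20, 4.93 and 10.7 FPM, each above every other mouse, with a ratio of means to 16w +dox of 9.92 and a log2 difference of 2.47 ± 0.38 (SE). *Nptxr* had the highest log2 difference of the 7 genes at 5d -dox.

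*Crisp1*, the secreted protein gene, was the member with the most reads, 560 to 3307 in each short-term mouse. It had 31.77, 14.97 and 32.39 FPM in 16w +dox and 27.8, 24.1 and 19.3 FPM in 3d -dox, and these groups of males overlapped. It had 47.1, 49.5, 44.7 and 51.3 FPM in 1d -dox and 58.9, 77.3 and 93.04 FPM in 5d -dox, and every one of these females lay above every male. Within the females, 5d -dox did not overlap 1d -dox. The log2 differences from 16w +dox were 0.94 ± 0.22 on day 1, -0.083 ± 0.24 on day 3 and 1.57 ± 0.24 on day 5 (SE).

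*Mafa*, the beta cell transcription factor gene, had 5.14, 2.35 and 6.61 FPM in 16w +dox and 7.81, 8.80, 11.9 and 6.34 FPM in 1d -dox, which overlapped. It had 8.04, 8.20 and 7.60 FPM in 3d -dox and 10.1, 15.5 and 12.8 FPM in 5d -dox, all above 16w +dox. The log2 differences were 0.89 ± 0.26, 0.80 ± 0.28 and 1.43 ± 0.28 (SE), of which the last passed 2-fold. Replicate 2 of 16w +dox was the lowest of its group for *Mafa*, *Crisp1*, *Shisa9*, *Nptxr* and *Dclk3*, and the highest for *Klhl40*. Without it the day 5 differences were 1.05 for *Mafa*, 1.21 for *Crisp1* and -1.30 for *Shisa9*. Cell markers also spread within 16w +dox: *Prl*, of lactotrophs, ranged from 7.26 to 93.5 FPM and *Nr5a1*, of gonadotrophs, from 0.995 to 12.2. The same replicate 2 was the highest mouse for both *Prl* and *Nr5a1*. The part of that spread in the members' differences was not tested.

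*Klhl40*, the muscle kelch gene, had 7.04, 9.76 and 5.49 FPM in 16w +dox and 6.39, 6.23, 4.19 and 4.89 FPM in 1d -dox. It had 2.63, 3.30 and 2.12 FPM in 3d -dox, below every other mouse, and 4.99, 5.32 and 7.99 FPM in 5d -dox. The day 3 log2 difference was -1.30 ± 0.22 (SE) between groups of the same sex. The day 1 and day 5 groups overlapped 16w +dox. Of 12 skeletal muscle markers only 3 were in the short-term table, and their summed level was 2.22 to 5.97 FPM in 16w +dox, 4.92 to 5.80 in 1d -dox, 5.11 to 7.12 in 3d -dox and 5.77 to 7.17 in 5d -dox.

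*Shisa9*, the AMPA receptor auxiliary subunit gene, had 5.27, 3.26 and 6.48 FPM in 16w +dox and 3.41, 4.24 and 3.79 FPM in 3d -dox. It had 1.60, 1.74, 2.39 and 1.85 FPM in 1d -dox and 2.495, 2.03 and 1.77 FPM in 5d -dox. All 7 females lay below all 6 males. The log2 differences from 16w +dox were -1.16 ± 0.19, -0.31 ± 0.20 and -1.05 ± 0.20 (SE) at 1d, 3d and 5d -dox.

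For 1d -dox and 5d -dox against 16w +dox, sex and time off dox cannot be told apart. The gonadotroph markers, which differ between the sexes, moved with these groups: their summed level over 4 genes was 12.7 to 33.5 FPM in 16w +dox, 0.825 to 2.48 in 1d -dox, 28.9 to 92.3 in 3d -dox and 0.883 to 2.19 in 5d -dox. The endothelial sum over 5 genes was 22.2 to 40.2, 12.4 to 16.3, 21.6 to 39.2 and 10.1 to 14.0 FPM in the same order. The somatotroph sum over 3 genes was 91.0 to 176, 17.6 to 85.3, 126 to 709 and 16.9 to 79.3 FPM, and the macrophage sum over 6 genes was 15.3 to 18.3, 9.99 to 21.3, 10.8 to 23.4 and 9.85 to 12.9 FPM. The melanotroph sum, most of it *Pomc*, was 41033 to 58538 FPM in 5d -dox, above every 16w +dox mouse. In 1d -dox it was 25949 to 46417 and overlapped. The part of any of these in the levels of the 7 genes was not tested. Within the females, from 1d to 5d -dox, 3 of the 7 genes lay more than 2-fold apart, beside 0.129% of the 13958 genes. This count uses the same mice by which the genes were chosen, and nothing is read from it. *Nptxr* was higher (log2 difference 1.38 ± 0.35, SE), and *Hs3st6* and *Dclk3* were lower (-1.09 ± 0.20 and -1.33 ± 0.32, SE). *Crisp1*, *Mafa*, *Klhl40* and *Shisa9* differed by 0.64, 0.55, 0.15 and 0.12. Without replicate 3 of 5d -dox only 1 of the 7 passed 2-fold.

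In the long-term mice, the first question was whether the 7 genes differ between early and later tumor growth under continuous KD. A gene was called when the adjusted p of limma was under 0.05 and the log2 difference was over 1 in size. From 6w+dox to 12w+dox, *Klhl40*, *Nptxr*, *Crisp1* and *Mafa* rose, 4 of 7 genes called, beside 7.2% of 15315 genes called and 3.15% called higher. For each of these 4 genes every mouse of 12w+dox lay above every mouse of 6w+dox. All 3 mice of 6w+dox were female, while 12w+dox held both sexes. These 4 genes stayed called under all 19 alternatives, a fit of females only among them. The smallest log2 differences were 1.90 for *Klhl40*, 1.18 for *Nptxr*, 1.35 for *Crisp1* and 1.45 for *Mafa*.

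*Klhl40* had 2.10, 1.38 and 1.49 FPM in 6w+dox and 7.29, 11.8, 13.7 and 5.03 FPM in 12w+dox, a log2 difference of 2.13 ± 0.41 (SE, adjusted p = 0.00322). *Nptxr* had 2.45, 8.28 and 11.5 FPM, then 24.7, 25.7, 16.3 and 26.5 FPM, a difference of 1.79 ± 0.37 (adjusted p = 0.00496). *Crisp1* had 58.3, 48.8 and 37.9 FPM, then 128.7, 134.4, 211.4 and 104.5 FPM, a difference of 1.54 ± 0.24 (adjusted p = 8.66e-04). *Mafa* had 6.52, 4.90 and 5.46 FPM, then 12.0, 27.2, 15.4 and 23.0 FPM, a difference of 1.64 ± 0.34 (adjusted p = 0.00533). For each of these genes the lowest mouse of 12w+dox was above the highest mouse of 6w+dox.

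*Hs3st6* had 2.56, 0.579 and 0 FPM in 6w+dox and 1.40, 4.08, 9.52 and 2.82 FPM in 12w+dox, and its log2 difference of 1.80 ± 0.67 missed the threshold (adjusted p = 0.0664). It passed without replicate 1 of 12w+dox (adjusted p = 0.0370) or without replicate 1 of 6w+dox (adjusted p = 0.0271), and with totals of reads as the scale (adjusted p = 0.0231). *Shisa9* had 15.1, 22.8 and 17.5 FPM, then 8.97, 19.1, 15.8 and 7.23 FPM (difference -0.59 ± 0.39, adjusted p = 0.296). *Dclk3* had 10.6, 7.66 and 5.67 FPM, then 2.55, 3.21, 6.19 and 15.3 FPM (difference -0.49 ± 0.53, adjusted p = 0.541). For these 3 genes the groups overlapped. Among the 7 melanotroph markers, *Pax7* and *Drd2* rose (log2 difference 1.32 each) and *Neurod1* fell by 1.84 on the log2 scale. The summed level of 3 somatotroph markers went from between 45927 and 80250 FPM in 6w+dox to between 934 and 7554 in 12w+dox. The part of such shifts in cell makeup in the members' differences was not tested.

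**Figure D2:**
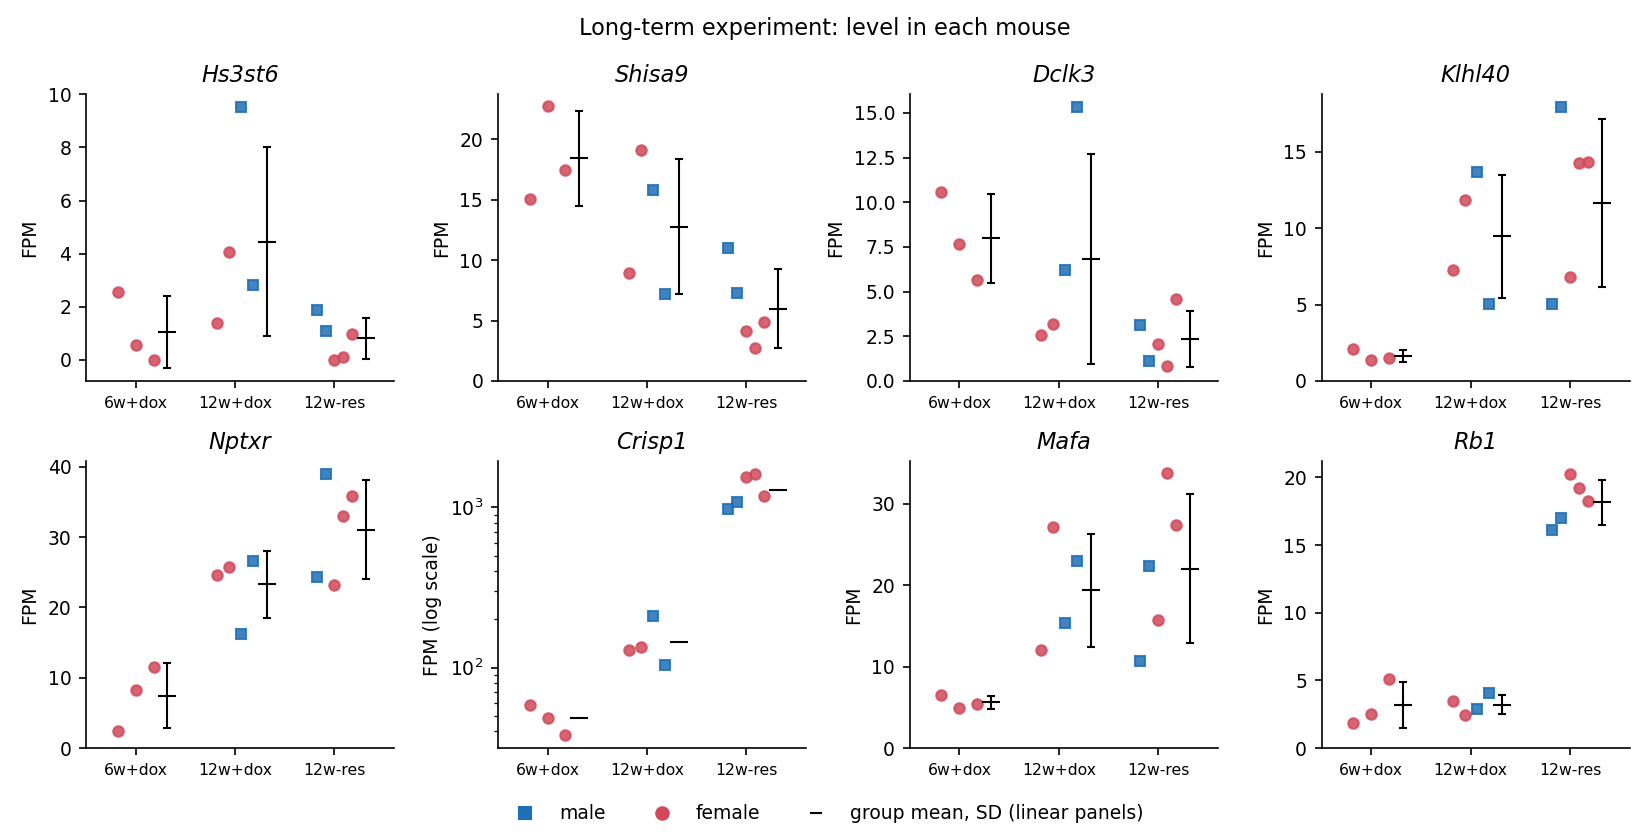
Level of the 7 genes and of *Rb1* in each mouse of the long-term experiment, in FPM on the y axis (log scale for *Crisp1* only), by group on the x axis. Squares are males, circles are females, and the bar beside each group is its mean, with the SD in the linear panels. *Crisp1* and *Rb1* in 12w-res lay above every mouse on dox, while the other 6 genes overlapped between 12w-res and 12w+dox.

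The next question was how the genes stand 6 weeks after dox removal, when *Rb1* was higher, rather than days after it. Of the 7 genes, *Crisp1* was higher and *Hs3st6* and *Shisa9* were lower in 12w-res than in 12w+dox, 3 of 7 called, beside 11.3% of 15315 genes (6.24% higher and 5.04% lower). *Crisp1* had 978, 1076, 1558, 1611 and 1183 FPM in 12w-res against 104.5 to 211.4 in 12w+dox. That was a ratio of means of 8.85 and a log2 difference of 3.16 ± 0.21 (SE, adjusted p = 6.77e-08), and it was called under all 22 alternatives, with differences from 2.51 to 3.45. The 7 melanotroph markers summed to 462708 to 584045 FPM in 12w-res and to 99212 to 202244 in 12w+dox, of which *Pomc* made up most, while *Pax7*, the melanotroph transcription factor gene, had means of 213 and 284 FPM. The summed level of 5 endothelial markers was 182 to 246 FPM in 12w-res against 55.9 to 118 in 12w+dox. That of 3 somatotroph markers was 6409 to 24797 against 934 to 7554, which overlapped. The sum of 2 lactotroph markers was 5694 to 11709 against 220 to 4994, and that of 6 macrophage markers 142 to 211 against 95.4 to 125. For 4 neuron markers it was 173 to 220 against 126 to 171. The sum of 3 thyrotroph markers was lower, 31.6 to 51.2 against 62.8 to 173. The part of these levels in the members' differences was not tested.

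*Hs3st6* had 1.87, 1.11, 0, 0.118 and 0.995 FPM in 12w-res, and the 2 lowest mice had 0 and 2 reads. Its log2 difference from 12w+dox was -1.88 ± 0.59 (SE, adjusted p = 0.0214), with 1 mouse of 12w+dox inside the 12w-res range. *Shisa9* had 10.97, 7.29, 4.14, 2.72 and 4.86 FPM in 12w-res, and its difference was -1.07 ± 0.35 (adjusted p = 0.0253) with overlapping groups. *Dclk3* had 3.12, 1.11, 2.09, 0.827 and 4.59 FPM, and its difference of -1.22 ± 0.47 missed the threshold (adjusted p = 0.0530). *Klhl40* ranged from 5.04 to 17.96 FPM, *Nptxr* from 23.2 to 38.9 FPM and *Mafa* from 10.7 to 33.8 FPM in 12w-res. All 3 overlapped 12w+dox and were not called, with differences of 0.24 ± 0.36, 0.40 ± 0.32 and 0.14 ± 0.30 (adjusted p = 0.621, 0.346 and 0.739).

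The calls of *Hs3st6* and *Shisa9* rested on single mice. *Hs3st6* was not called without 12w+dox replicate 3 (log2 difference -1.45, adjusted p = 0.0798), 12w-res replicate 3 (-1.59, 0.0555) or 12w-res replicate 4 (-1.67, 0.0550), nor by edgeR (adjusted p = 0.0560) or DESeq2 (0.126). *Shisa9* was not called without 12w+dox replicate 2 (-0.85, adjusted p = 0.0883) or 3 (-0.94, 0.0767), or without 12w-res replicate 3 (-0.98, 0.0584), 4 (-0.85, 0.0637) or 5 (-1.03, 0.0503). *Dclk3* was called without 12w+dox replicate 1 (-1.54, adjusted p = 0.0221) or 2 (-1.44, 0.0436), and without 12w-res replicate 1 (-1.35, 0.0496) or 5 (-1.47, 0.0267). It was also called by edgeR (adjusted p = 0.0386) and DESeq2 (0.0104), and with totals of reads as the scale (-1.78, 0.00527). It was not called without 12w+dox replicate 4, the highest mouse of that group (15.3 FPM). Over 22 alternatives its difference ranged from -2.09 to -0.37, with adjusted p up to 0.660. Without 12w+dox replicate 3, 12w-res replicate 3 or 12w-res replicate 4, only 1 of the 7 genes, *Crisp1*, stayed called.

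Scaling by the total of reads on genes, in place of the deposited size factors, moved the median log2 difference of all genes between 12w-res and 12w+dox to -0.61, and the share of calls that were higher went from 55.3% to 6.76%. *Crisp1* stood at 2.51 on that scale, 3.11 above the median of all genes. *Klhl40*, *Nptxr* and *Mafa* turned to -0.38, -0.24 and -0.50, which were 0.23, 0.36 and 0.11 above that median. From 6w+dox the same scaling moved the median to 0.29 for 12w+dox (76.9% of calls higher, against 43.8%) and to -0.33 for 12w-res (23.3% against 49.9%).

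Against 6w+dox, 6 of the 7 genes were called in 12w-res, beside 11.6% of 15315 genes (5.81% higher and 5.82% lower). *Crisp1* was 26.5-fold higher by group means (log2 difference 4.71 ± 0.23, SE, adjusted p = 1.66e-08). *Klhl40* (2.37 ± 0.39, adjusted p = 4.03e-04), *Nptxr* (2.19 ± 0.35, 3.42e-04) and *Mafa* (1.78 ± 0.33, 9.68e-04) were higher as well, with every mouse above every 6w+dox mouse. *Shisa9* (-1.66 ± 0.38, 0.00390) and *Dclk3* (-1.71 ± 0.51, 0.0191) were lower, with every mouse below. *Hs3st6* did not differ by more than its spread (-0.078 ± 0.64, 0.939). *Dclk3* lost its call without 6w+dox replicate 1 (adjusted p = 0.0737) or 2 (0.0565). This comparison shares mice with the 2 before it, and 6w+dox held only females.

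**Figure D3:**
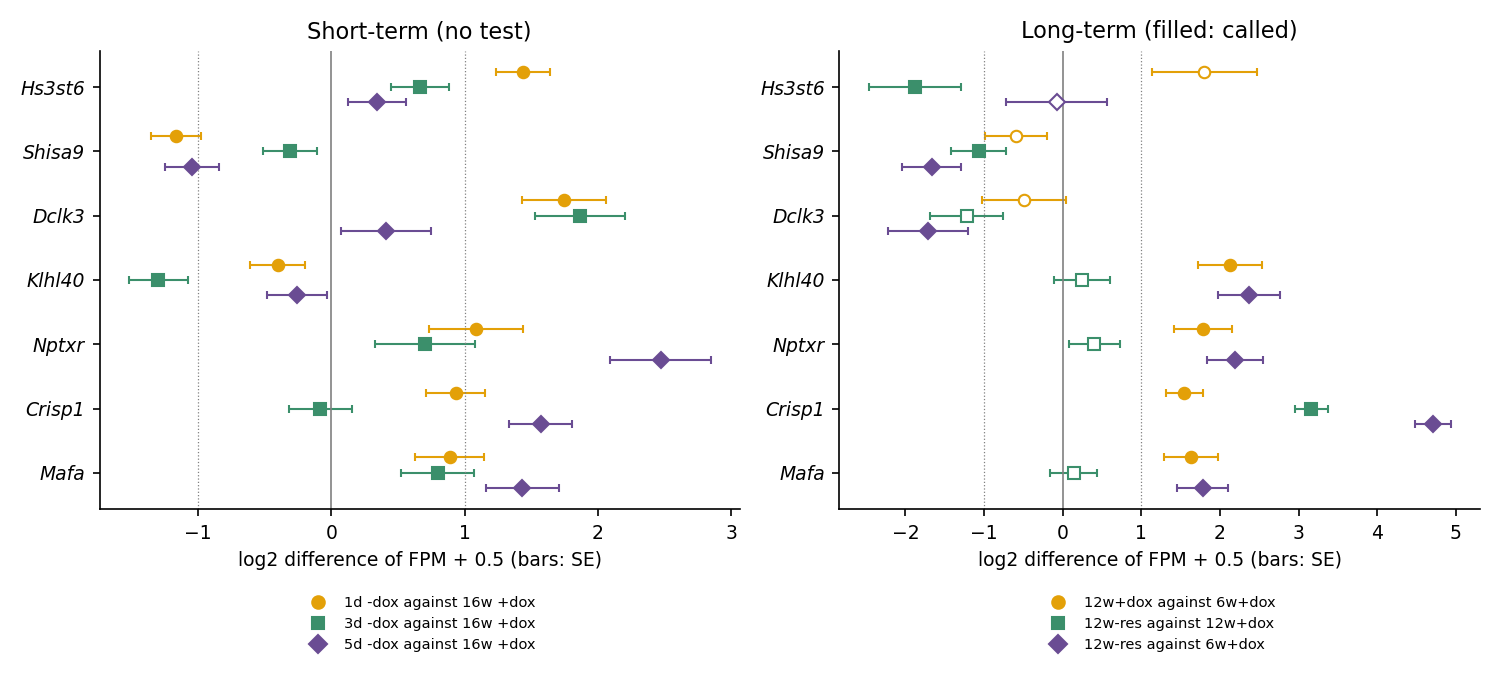
Log2 difference of FPM + 0.5 for each of the 7 genes, with SE bars, in 3 short-term comparisons (left, no test) and 3 long-term comparisons (right). In the right panel filled symbols were called (adjusted p under 0.05 in limma and more than 2-fold) and dotted lines mark 2-fold. *Crisp1* lay furthest to the right in 12w-res, and *Dclk3* lay to the right of 0 in all 3 short-term comparisons and to the left in all 3 long-term ones.

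Set side by side, the direction a gene took within days of dox removal was not always its direction after 6 weeks. *Crisp1* was above 16w +dox at 1d and 5d -dox and above 12w+dox in 12w-res. *Shisa9* was below 16w +dox at 1d and 5d -dox, and its mean was lower in 12w-res than in 12w+dox, with overlapping mice. At 3d -dox, the only sex-matched comparison with 16w +dox, both *Crisp1* and *Shisa9* overlapped it. *Dclk3* and *Hs3st6*, both higher at 1d and 3d -dox, were lower in 12w-res than in 12w+dox by log2 differences of -1.22 (not called) and -1.88 (called). *Nptxr* and *Mafa*, higher on day 5, had differences of 0.40 and 0.14 from 12w+dox that were not called. The picture depends on the reference. Against 6w+dox, *Klhl40*, *Nptxr*, *Mafa* and *Crisp1* were called higher in 12w-res, *Dclk3* and *Shisa9* were called lower, and *Hs3st6* was not called. *Klhl40* had been below 16w +dox at 3d -dox, and it was not called between 12w-res and 12w+dox. The experiments differ in tumor age, library type and sex, and no test joined them.

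Since sex went with time in the short-term mice, it was measured in the long-term mice, with 8 females and 4 males and the group in the fit. Between females and males, 0 of the 7 genes were called by limma, edgeR or DESeq2, beside 0.0457% of 15315 genes by limma. *Hs3st6* was the 1 gene with an unadjusted p under 0.05 (log2 difference -1.17 ± 0.52, unadjusted p = 0.0419, adjusted p = 1.00). The female minus male difference was 0.19 ± 0.21 for *Crisp1* and -0.49 ± 0.33 for *Shisa9*, the 2 genes whose short-term levels separated by sex. The same fit called *Lhb* and *Fshb*, the gonadotropin beta subunit genes, lower in females by log2 differences of -3.02 and -4.50. The SEs of the sex difference were 0.21 to 0.52 for the 7 genes, and a missed call does not show that the sexes were alike.

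Within each sex, the 12w-res difference of *Crisp1* was 3.45 in females (adjusted p = 5.17e-05) and 2.78 in males (adjusted p = 6.25e-04). *Shisa9* fell in females by 1.66 on the log2 scale (14.1 to 3.91 FPM, adjusted p = 0.00980), and in males its means were 11.5 and 9.13 FPM (difference -0.25, adjusted p = 0.700). *Dclk3* showed the reverse, with 2.88 and 2.502 FPM in females (difference -0.37, adjusted p = 0.617) and 10.8 and 2.11 FPM in males (difference -2.09, adjusted p = 0.0227). *Hs3st6* differed by -1.93 in females (adjusted p = 0.0304, or 0.108 with the 6w+dox females in the fit) and by -1.56 in males (adjusted p = 0.0630). The difference between the sexes itself was not called for any of the 7 genes, with 13 of 15315 genes past an adjusted p of 0.05. The values nearest to it were *Shisa9* (-1.41 ± 0.58, unadjusted p = 0.0347) and *Dclk3* (1.72 ± 0.82, unadjusted p = 0.0616), both with an adjusted p of 0.999. Each sex held 2 or 3 mice a group.

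The 7 genes were set beside 98 relatives, taken from 8 lists of family members and partner genes. In the short-term mice 65 relatives were tested, and limma called 0 at 1d, 3d or 5d -dox, beside 0.043%, 0.129% and 0.193% of 13958 genes. At an unadjusted p under 0.05 there were 9, 14 and 16, edgeR called 0, 0 and 0, and DESeq2 called 2, 1 and 0. *Dclk1* and *Dclk2*, the kinases closest to *Dclk3*, had log2 differences between -0.22 and 0.15. *Crisp3*, the neighbour and paralog of *Crisp1*, had 0.23, 0.085 and 0.66. Its levels were low, with means of 0.154 FPM in 16w +dox and 0.557 in 5d -dox, so adding 0.5 understates its change. The 5d -dox mice (0.308 to 0.844 FPM, 11 to 30 reads) lay above those of 16w +dox (0.128 to 0.200 FPM, 5 to 8 reads). *Shisa6*, which also binds AMPA receptors, had -1.25, -1.02 and -0.82 and was not called. Its 16w +dox mice had 0.275, 0.408 and 2.99 FPM (11 to 112 reads), so 1 mouse, replicate 2, weighs heavily in these differences. *Klhl41*, the nearest paralog of *Klhl40*, had 0.087, -0.60 and 0.51, also not called.

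In the long-term mice 74 relatives were tested. From 6w+dox to 12w+dox, 6 were called higher and 9 lower (background 3.15% and 4.04%). In the heparan sulfate list 5 of 21 rose, among them *Ndst4* (log2 difference 1.68), which starts sulfation of the chain, and *Hpse* (1.53), the enzyme that cuts it, and 2 fell. *Nptx1*, a secreted pentraxin that binds the *Nptxr* product, fell by 1.91 while *Nptxr* rose, *Cacng5*, an AMPA receptor partner, fell by 1.59, and *Neurod1*, a partner of *Mafa* at insulin genes, fell by 1.84. Of the 10 other Maf factors and partners tested, 0 were called in any of the 3 long-term comparisons.

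Between 12w-res and 12w+dox, 4 relatives were called higher and 6 lower (background 6.24% and 5.04%). In the list of Shisa proteins and AMPA receptor genes, 4 of 18 fell with *Shisa9*: *Shisa8* (-2.12), *Cacng4* (-1.73), the receptor subunit gene *Gria2* (-1.55) and *Cnih2* (-1.15), and *Shisa3* rose by 1.31. The list's median was -0.42, beside a median of -0.0040 over all genes. In the heparan sulfate list *Ndst3* fell (-2.36, from 45.4 to 8.50 FPM) and *Hpse* fell (-1.51), as *Hs3st6* did, *Extl1* rose (1.30), and the median of 21 genes was 0.17. *Crisp3* rose with *Crisp1*, from 0.764 ± 0.297 FPM (SD, n = 4) to 2.83 ± 0.65 (SD, n = 5), a difference of 1.41 ± 0.21 (SE, limma, adjusted p = 1.83e-04). Since the CRISP genes are close paralogs, reads shared between them could have been split by the counting, although *Crisp1* had 18813 or more reads in each 12w-res mouse. Of the sarcomere list *Klhl31* rose (1.32), and *Klhl41* had a difference of 0.51 that was not called. None of the 5 other doublecortin genes or the 2 other pentraxins tested was called.

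**Figure D4:**
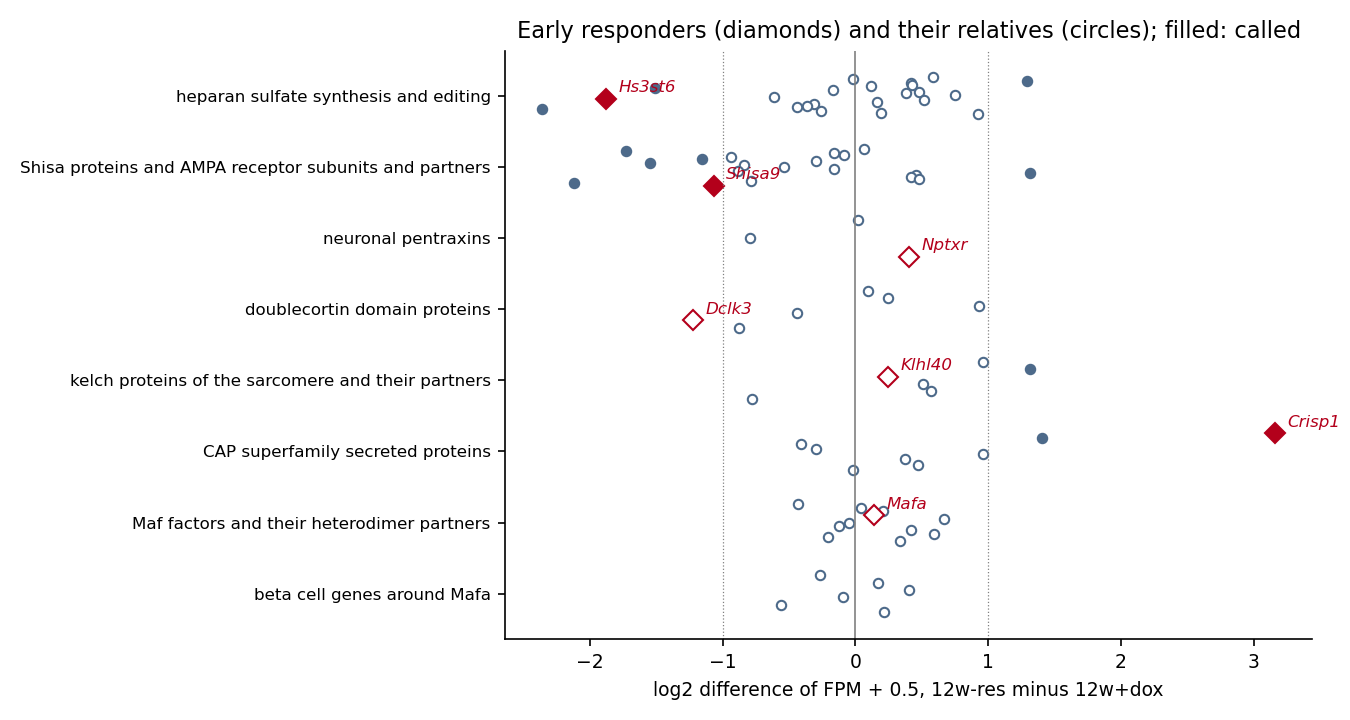
Log2 difference of FPM + 0.5 between 12w-res and 12w+dox for the 7 genes (diamonds) and their 74 tested relatives (circles), 1 row for each list. Filled symbols were called by limma, and dotted lines mark 2-fold. *Crisp1* lay beyond every relative on the right, and *Shisa9* lay among a row in which 4 relatives were called lower and 1 higher.

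Against 6w+dox, 8 relatives were called higher and 11 lower in 12w-res (background 5.81% and 5.82%). The 5 largest were *Neurod1* (-1.94), *Crisp3* (1.93), *Dcx* (-1.90), which encodes doublecortin, *Nptx1* (-1.89) and *Shisa8* (-1.83). *Klhl41* rose by 1.31 beside *Klhl40*. Of 12 skeletal muscle markers 7 were in the long-term table, of which 0 were called in this comparison, while *Acta1*, the skeletal actin gene, fell by 1.38 from 6w+dox to 12w+dox. Their sum was 17.1 to 22.2 FPM in 6w+dox, 8.59 to 16.6 in 12w+dox and 12.3 to 16.9 in 12w-res.

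Correlation over mice was used to describe which genes followed each member. It is given as Pearson's r of log2(FPM + 0.5) without a test, since the mice of a group share their condition and, in the short-term groups, their sex. Over the 13 short-term mice, among 11557 genes with a mean of at least 1 FPM, *Hs3st6* was most like *Ift140* (r = 0.92) and *Fam234a* (0.87), which lie on the same chromosome at 0.302 and 1.47 Mb. *Crisp1* was most like *Tmem158* (0.96) and *Spint2* (0.95), *Nptxr* like *Hnrnpab* (0.95) and *Nenf* (0.94), and *Mafa* like *Marcks* (0.95) and *Hist1h3h* (0.93). *Klhl40* was most like *Lmna* (0.96) and *Cd9* (0.95), *Shisa9* like *Top1* (0.93) and *Ubn2* (0.88), and *Dclk3* like *Pole* (0.86) and *Parp6* (0.83). Within 1 Mb of *Hs3st6*, 4 of 51 genes had an absolute r over 0.8 with it, beside 0.190% of all genes. For *Dclk3* 1 of 11 neighbours did, beside 0.112% of all genes, and for *Nptxr* 1 of 39, beside 0.917%. For *Shisa9*, *Klhl40*, *Crisp1* and *Mafa* 0 of 5, 13, 1 and 49 did, beside 0.381%, 4.11%, 2.60% and 0.805%.

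Over the 12 long-term mice and 13878 genes, the most similar genes were different. *Crisp1* was most like *Klk14* (r = 0.99) and *Eif5* (0.99), *Klhl40* like *Sema6b* (0.97) and *Btbd3* (0.96), *Nptxr* like *Chst11* (0.97) and *Trip11* (0.97), and *Mafa* like *Jag2* (0.94) and *Il16* (0.94). *Hs3st6* was most like *Pex19* (0.95) and *Med22* (0.91), *Shisa9* like *Spsb2* (0.95) and *Cldn9* (0.95), and *Dclk3* like *Mex3c* (0.94) and *Mgat5b* (0.89). Near *Hs3st6* 1 of 58 genes had an absolute r over 0.8, beside 1.71% of all genes. Among the other members this count was highest for *Nptxr*, 6 of 44, beside 7.70% of all genes. Among the members themselves, *Nptxr*, *Crisp1* and *Mafa* went together in the short-term mice (r = 0.76 to 0.82). In the long-term mice *Mafa* and *Klhl40* were closest (0.89), while *Shisa9* went against *Crisp1* (-0.80).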

How the data were processed

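RNA was measured in pituitaries of 25 sh*Rb* mice, 13 in the short-term and 12 in the long-term experiment, grouped by their labels. The authors mapped reads to mm10 with STAR, counted reads on RefSeq genes and dropped genes with low counts. The deposited signal is FPM, reads scaled by DESeq2 size factors, per mouse. Per the labels the short-term libraries were rRNA-depleted and the long-term ones poly(A)-enriched. The counting tool and the use of strand were not given in the sources used here. Dividing by the step of each mouse gave whole reads for 100% of values (tolerance 0.1 of a read). In the short-term file, 4 lines with no gene held 68.8% to 75.0% of a library and were left out, as were 2 lines without a name in the long-term file. 0 per-sample columns were left unused.

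The 7 genes, their relatives and the marker lists were chosen with earlier results of these data known. Genes reaching 10 reads in over 50% of the mice of any group were fitted on log2(FPM + 0.5) with limma 3.58.1 (trend, all groups of an experiment), with Benjamini-Hochberg adjustment over all genes fitted. Calls needed an adjusted p below 0.05 plus a log2 difference beyond 1 in size, the thresholds of the study's methods. Sex was tested with the group in the fit, and the difference between the sexes as an interaction over 12w+dox and 12w-res mice. Named genes were the 7 genes, *Rb1*, *GFP*, called genes of the lists (at most 5 a comparison, the largest changes first), nearest paralogs, and the 2 genes most correlated with each member. Others named in a list (*Cnih2*, *Shisa3*, *Extl1*, *Klhl31*, *Klhl41*, *Shisa6* and markers) were chosen after their values were seen. Same-numbered mice did not deviate together (18 pairs of short-term mice with a median r of 0.0029, and 10 pairs of long-term mice with -0.044), so numbers were not used as pairs. Counts of any pair of mice in a group differed by more than sampling noise (smallest chi-square over its degrees of freedom 3.93). Alternatives used other pseudocounts, scalings, filters, samples, a replicate block, edgeR 4.0.16 and DESeq2 1.42.0 on the recovered reads, and each mouse left out. Fits were tested on simulated data. The precision depends on depth: levels below about 3 reads are at the floor.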

Additional observations from a re-analysis of the deposited data

How the results depend on the processing

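The number of the 7 genes past 2-fold at 1d -dox was 4 and became 2 with a pseudocount of 1, and at 3d -dox it was 2 and became 4 with edgeR and 4 with DESeq2. Low levels limit *Hs3st6*, whose day 1 log2 difference of 1.44 was 0.89 with a pseudocount of 1 and 8.11 with edgeR. Relatives called at 1d -dox were 0, and 2 with DESeq2. At 3d -dox they were 0, 1 with DESeq2 and 1 when any fold was accepted. In 12w+dox against 6w+dox they were 15, 6 in females only and 23 with no minimum fold change. Between 12w-res and 12w+dox they were 10, 17 with a pseudocount of 0.1, 19 with totals of reads, 16 with DESeq2 and 34 with no minimum fold change. Against 6w+dox they were 19, 12 with 10 reads required in every sample and 34 with no minimum fold change. The cause of these shifts was not tested.

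With 1 mouse left out, the members past 2-fold ranged from 3 to 5 at 1d -dox, 2 to 3 at 3d -dox, 3 to 4 at 5d -dox and 1 to 3 from 1d to 5d -dox. Members called ranged from 4 to 5 (12w+dox against 6w+dox), 1 to 4 (12w-res against 12w+dox), 5 to 6 (12w-res against 6w+dox) and 0 to 0 between the sexes. Relatives called ranged from 0 to 0, 0 to 1 and 0 to 0 at 1d, 3d and 5d -dox, and from 11 to 19, 9 to 15 and 17 to 22 in the long-term comparisons.

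In the tested comparisons, signs turned for differences that were not called. Between 12w-res and 12w+dox, *Klhl40* (0.24) became -0.38 with totals of reads and -0.0084 without 12w+dox replicate 4, *Nptxr* (0.40) became -0.24 with totals of reads, and *Mafa* (0.14) became -0.50 with totals of reads, -0.27 in males only, -0.058 without 12w+dox replicate 1 and -0.037 without 12w-res replicate 4. With 1 mouse left out the highest values were 0.49 for *Klhl40* and 0.37 for *Mafa*. The difference of *Hs3st6* between 12w-res and 6w+dox (-0.078) became 0.21 and 0.14 without 12w-res replicates 3 and 4, and 0.61 without 6w+dox replicate 1, and at the lowest -0.70 without 6w+dox replicate 3. Between the sexes, *Nptxr* (0.11) became -0.045 without 12w+dox replicate 3 and -2.9e-04 without 12w-res replicate 1, and *Klhl40* (0.18) became -0.058 and -0.20 without 12w+dox replicate 4 and 12w-res replicate 1. Their highest values were 0.29 and 0.54, without 12w-res replicate 2.

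With the replicate number as a block, members past 2-fold were 4, 2 and 4 at 1d, 3d and 5d -dox, and members called were 4, 4 and 6 in the long-term comparisons. *Dclk3* between 12w-res and 12w+dox was then called (adjusted p = 0.0459), and the block changed no other call of the 7 genes. The males-only fit and the alternatives for 1d against 5d -dox were chosen after seeing the data.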
